A study of Irpex lacteus with 14 samples.

Results

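Transcript levels of the white-rot fungus Irpex lacteus on ground wheat straw were compared with those on pure cellulose. The comparison draws on 6 of the 14 libraries of the study, 3 from straw cultures and 3 from cellulose cultures, and on 967 of the 977 different genes in the deposited table. A gene was kept when its normalized log2 read count reached 3.32, a normalized count of about 10, in at least 2 of the 5 substrates. The study also grew the fungus on maltose (3 libraries), aspen (3) and pine (2), and these columns are used here only to describe the genes that differed between straw and cellulose.

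Both groups were the same strain, CCBAS Fr. 238 617/93, harvested on day 3 from shaken flasks of 250 ml at 30 °C. Each held 100 ml of a mineral medium with yeast extract and 2.5 g per litre of maltose. The cellulose flasks held 15 g per litre of Avicel, a microcrystalline cellulose, and the straw flasks the same weight of sifted straw fragments under 2 mm. The 2 groups therefore shared the sugar and the weight of solid, and differed in the solid itself and in its particle form. The maltose medium had 20 g per litre of maltose and no solid, and pine matched straw in sugar, solid and fragment size. Aspen, milled to 1 mm, was given at the same 15 g per litre, and the label misprints how much maltose went with it. The labels do not say that replicates of a group came from separate inocula. Mycelium was frozen together with the solid that remained.

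White-rot fungi degrade all the main polymers of plant cell walls. Avicel offers almost only cellulose, which such fungi attack with cellobiohydrolases, endoglucanases, lytic polysaccharide monooxygenases and beta-glucosidases. Wheat straw adds to cellulose the xylan-rich hemicellulose of grasses, pectin, lignin with ferulic and coumaric acid attached, protein, waxes and silica. Breakdown of these is known to call on xylanases, esterases, pectinases, peroxidases, laccases and detoxifying enzymes such as cytochrome P450s. The table identifies genes by numbers of the MycoCosm portal alone and pairs none with a name or a function, so which of these enzymes lie among the genes below is not analysed here. It cannot be checked here against marker genes that a column holds the labelled substrate.

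Each substrate had 1 deposited value per gene, standing for its libraries, with no spread between them. No library total, read count or replicate value accompanied the table, so the depth behind each value is unknown, and no error, interval or test could be given for a gene. Below, higher or lower means a log2 difference of 1 or more between the deposited values, which is 2-fold. These are sizes of difference between the authors' pooled values and not tests, and it was not tested whether they exceed the spread between cultures. Levels are normalized read counts without correction for gene length, so an order of genes by level is one of reads and not of transcript numbers.

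Straw and cellulose differed at least 2-fold for 377 of the 967 genes (39.0%). Straw had the higher value for 197 of these genes (20.4% of all) and the lower value for 180 (18.6%). The difference per gene had a median of 0.037 on the log2 scale and quartiles of -0.73 and 0.73, so higher and lower values on straw were about balanced on the deposited scaling. For 352 genes (36.4%) the 2 values lay within 0.5 of each other. The outer 5% of the genes on each side lay at or below -2.14 and at or above 2.61.

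Past 4-fold and 8-fold, more genes were higher than lower on straw, and past 16-fold the numbers were close. At 4-fold, 81 genes (8.38%) were higher and 56 (5.79%) lower. At 8-fold the numbers were 27 and 15, and at 16-fold 9 and 8. Past 32-fold, 2 genes were higher and 3 lower. The excess of higher genes at 4-fold was smaller where each column was scaled to the same sum of linear values, with 72 higher and 66 lower, and at 2-fold that scaling turned the balance to 166 higher and 214 lower. Straw then had a median difference of -0.12. The 10 genes removed by the filter had straw values between 0.97 and 3.26 and cellulose values between 0.60 and 3.21, with differences from -1.50 to 0.54. At the edge of the filter, the second-highest value over the substrates was 3.35 for the lowest gene kept and 3.30 for the highest gene left out.

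**Figure D1:**
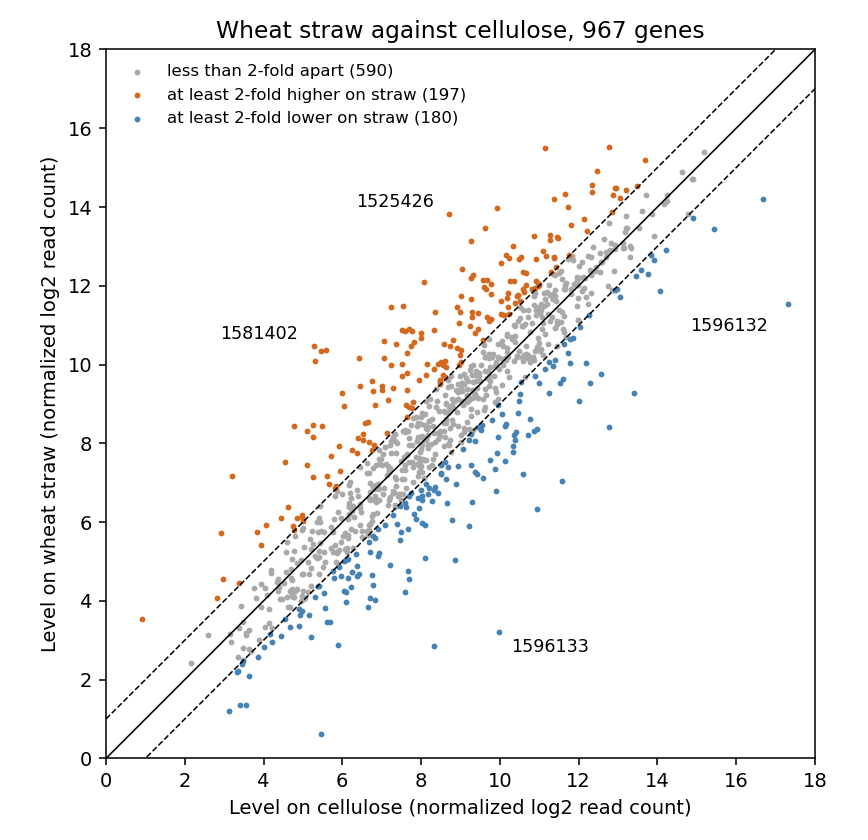
Level of each of the 967 genes on cellulose (x axis) and wheat straw (y axis), both as normalized log2 read counts, with 1 point per gene and 1 pooled value per substrate. The solid line marks equal levels and the dashed lines a 2-fold difference: 197 genes lie on or above the upper dashed line, 180 on or below the lower one, and the 4 named genes are the 2 farthest from the solid line on each side.

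The 2 genes with the largest positive difference were 1581402 and 1525426. Gene 1581402 had a log2 level of 10.46 on straw and 5.27 on cellulose, 36.6-fold higher on straw. Its levels on the substrates outside the comparison were 5.83 on maltose, 9.05 on aspen and 10.45 on pine. It was thus low on both media without plant material and high on all 3 with it. Gene 1525426 stood at 13.81 on straw and 8.71 on cellulose, a 34.3-fold difference. It was at 9.32 on maltose and 14.95 on pine, but at 6.50 on aspen, the lowest of its 5 values. These 2 genes therefore parted on aspen, where 1581402 was 9.32-fold above its maltose level and 1525426 was 7.05-fold below it.

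The 2 genes with the largest negative difference were 1596133 and 1596132. Gene 1596133 was at 3.21 on straw and 9.98 on cellulose, a log2 difference of -6.78. Its straw value lies below the filter level, where a small change in reads moves the logarithm most, and the difference was -5.89 with 8 added to the linear values. It was at 8.74 on maltose, 6.04 on aspen and 3.43 on pine. Gene 1596132 was at 11.55 on straw and 17.31 on cellulose, 54.4-fold lower on straw, and adding 8 left its difference at -5.76. Its other levels were 17.16 on maltose, 14.22 on aspen and 11.96 on pine. Both genes had the order cellulose, maltose, aspen, pine and straw from highest to lowest.

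**Figure D2:**
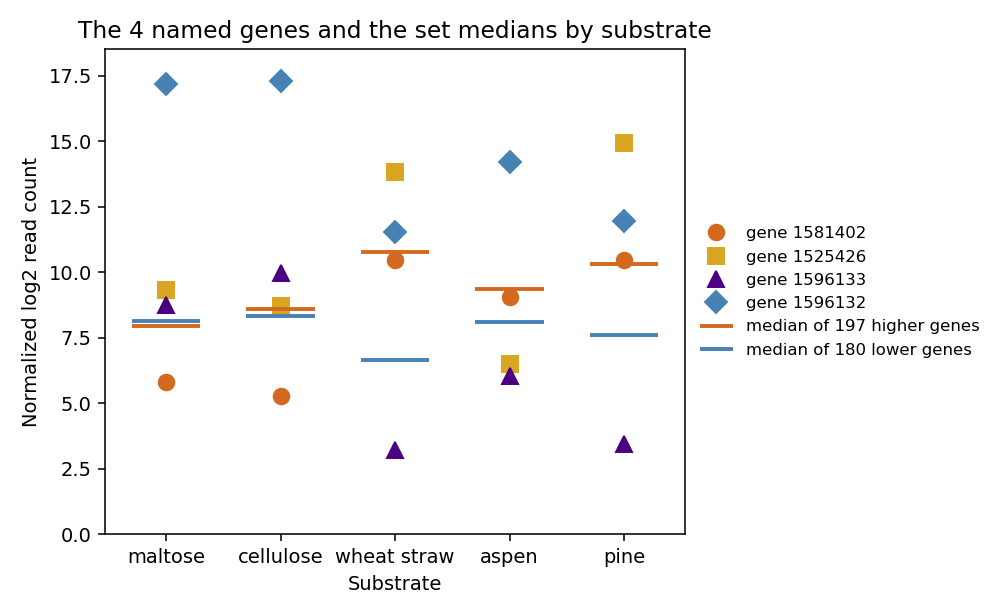
Normalized log2 read count (y axis) of the 4 named genes on the 5 substrates (x axis), 1 pooled value per substrate, with short lines for the medians of the 197 higher and 180 lower genes. Genes 1581402 and 1525426 are high on straw and pine and part on aspen (9.05 against 6.50), and genes 1596132 and 1596133 are lowest on straw and next lowest on pine.

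Behind these 4, a further 7 genes were at least 16-fold higher on straw, with differences from 4.01 to 4.89. Their levels ran from 10.09 to 15.50 on straw and from 5.30 to 11.15 on cellulose. All 7 were also at least 2-fold above their maltose level on both woods, by 3.05 to 5.02 on pine and by 1.04 to 4.42 on aspen. The same held for 16.4% of all genes and for 63.0% of the 81 genes at least 4-fold higher on straw. In the other direction, 6 further genes were at least 16-fold lower on straw, with differences from -5.48 to -4.14. Their levels ran from 0.61 to 9.27 on straw, in part below the filter level, and from 5.47 to 13.42 on cellulose. With 8 added to the linear values, the differences of these 6 genes ran from -4.47 to -2.45, so not all stayed past 16-fold. Those of the 7 higher genes then ran from 3.97 to 4.66. These 6 were less alike on the woods: against maltose they ranged from -4.97 to -0.011 on pine and from -2.02 to 1.10 on aspen.

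Few genes of the filtered table lay under 3.32 on either solid. On cellulose these were 11 of all 967 genes and 5 of the 197 higher ones, and these 5 reached 3.55 to 7.17 on straw. On straw they were 32 of all 967 genes and 18 of the 180 lower ones, gene 1596133 included, from cellulose values of 3.13 to 9.98. Adding 8 to the linear values, which damps differences at low levels, kept 187 of the 197 higher and 147 of the 180 lower genes past 2-fold, and 77 of the 81 and 48 of the 56 past 4-fold.

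The balance of higher and lower genes changed with the level of the gene. Genes were placed in 5 level groups of 193 or 194 by their mean log2 value on maltose, aspen and pine, which did not enter the difference. In the lowest group, 21 of 194 genes were higher on straw and 51 lower, with a median difference of -0.44. The next group had 34 higher and 40 lower, and the middle one 48 and 36. The group above it had 49 higher and 23 lower with a median difference of 0.24, and the highest 45 and 30 with 0.18. On the deposited scaling, straw was thus lower than cellulose more often among weakly read genes and higher more often among strongly read ones. This pattern depended on the scaling: quantile normalization, which gives the columns one distribution, gave 32 higher and 27 lower in the lowest group and 28 higher and 44 lower in the highest. Centring the columns on their medians gave 18 higher and 58 lower in the lowest group and 37 and 33 in the highest. Scaling to equal sums gave 17 higher and 67 lower in the lowest group and 36 and 34 in the highest. With 8 added, the lowest group had 15 higher and 27 lower genes.

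**Figure D3:**
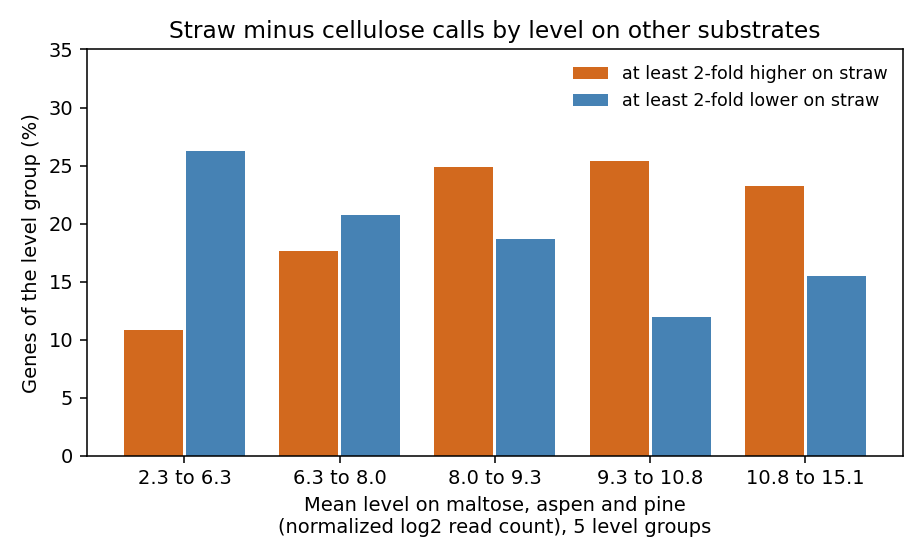
Share of genes at least 2-fold higher or lower on straw than on cellulose (y axis, percent) in 5 level groups of the 967 genes by mean log2 value on maltose, aspen and pine (x axis, range of each group). Lower genes are the larger share in the lowest group (51 against 21 of 194 genes) and higher genes in the upper 3 groups, on the deposited scaling.

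The genes that differed took up a large part of the reads of the table. When the linear values of all 967 genes were summed, the 197 higher genes accounted for 13.0% of the sum on cellulose and 44.2% on straw. The 180 lower genes held 34.4% on cellulose and 6.86% on straw. The other 590 genes held 52.6% on cellulose and 49.0% on straw. The 377 genes that differed, which held the rest, are 39.0% of all genes. A single gene, 1596132, made up 9.04% of the sum on cellulose and 0.149% on straw. Without it, the other 179 lower genes held 27.9% of the remaining sum on cellulose and 6.72% on straw. These shares follow from how the genes were chosen, but the substrates that did not choose them can be set beside them. The higher genes held 11.6% on maltose, 24.5% on aspen and 31.9% on pine, and the lower genes 32.1%, 16.7% and 9.81%. For both sets maltose lay near cellulose, and pine lay nearer to straw than aspen did.

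The leading genes of the 2 solids overlapped in part. Of the 10 genes with the largest values on each, 4 were the same. The 6 that were among the leading 10 on straw alone were all at least 2-fold higher there, by 1.07 to 4.35 on the log2 scale. Of the 6 among the leading 10 on cellulose alone, 4 were at least 2-fold lower on straw, and the differences ran from -5.76 to 0.065. Over all genes, 20.4% were higher and 18.6% lower on straw. The same 2 columns chose these leading genes, and that choice favours these directions, so the counts are given as a description. Gene 1596132 had the largest value of all genes on cellulose and ranked 178 on straw. The 10 leading genes held 28.5% of the sum on cellulose and 16.8% on straw.

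**Figure D4:**
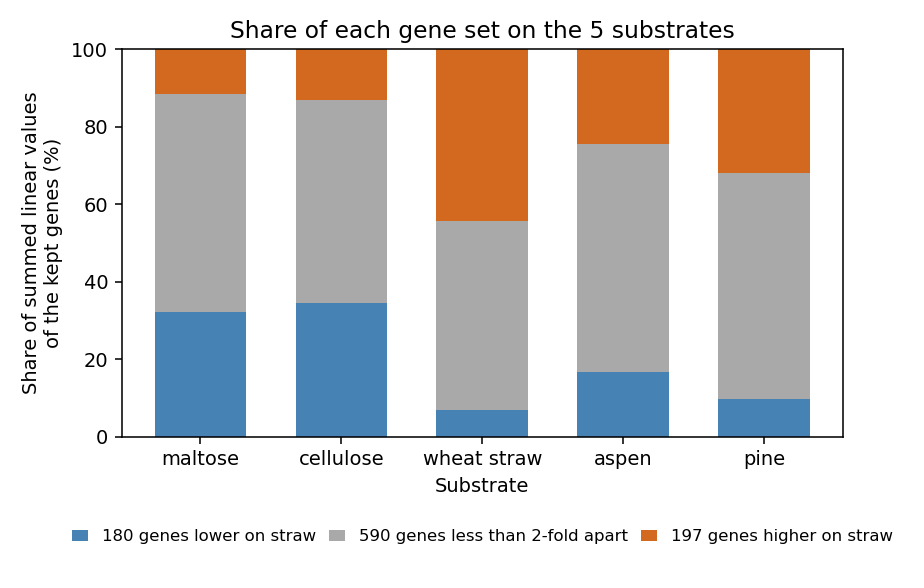
Share of the summed linear values over all 967 genes (y axis, percent) on each substrate (x axis) that fell to the 197 genes higher on straw than on cellulose, the 180 lower genes and the other 590. The higher genes hold 44.2% on straw against 13.0% on cellulose, and on pine (31.9%) and aspen (24.5%) their share lies between these values.

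The genes higher on straw than on cellulose were also those more often higher on wood than on maltose. Pine minus maltose and aspen minus maltose share no column with straw minus cellulose, so these values did not enter the 2-fold calls. They are still tied to those calls by the authors' joint normalization and by the filter, which used all 5 columns. How the genes of the table were selected is also unknown. Whether that selection favoured genes that respond to both straw and wood was not tested. Both wood differences share the maltose column, and the maltose medium also differed in its sugar level. Of the 197 higher genes, 149 (75.6%) were at least 2-fold higher on pine than on maltose, against 32.2% of all genes. None of the 197 was at least 2-fold lower there, against 9.41% of all genes, and the lowest value was -0.99. The median difference between pine and maltose was 1.92 for the 197 genes and 0.43 for all genes.

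Aspen gave the same direction, at a smaller size on the deposited scaling. Of the 197 genes, 109 (55.3%) were at least 2-fold higher on aspen than on maltose, against 21.0% of all genes. Another 5 (2.54%) were at least 2-fold lower, against 6.41% of all genes, and gene 1525426 was 1 of these 5. The median was 1.13 for the 197 genes and 0.10 for all. With columns scaled to equal sums, the median of the higher genes was 1.27 on aspen and 1.27 on pine. Then 60.8% of the higher genes were past 2-fold on aspen, against 22.9% of all genes, and 57.8% on pine, against 17.2%. Less the median of all genes under that scaling, the higher genes stood at 1.08 on aspen and 1.59 on pine. It was not tested whether pine and aspen differ in this.

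The 180 genes lower on straw went the other way on wood, less uniformly. On pine, 59 of them (32.8%) were at least 2-fold lower than on maltose and 19 (10.6%) higher, against 9.41% and 32.2% of all genes. On aspen, 46 (25.6%) were lower and 17 (9.44%) higher, against 6.41% and 21.0%. Their medians were -0.47 on pine and -0.35 on aspen. For 80 of the 180 genes (44.4%), both woods lay within 2-fold of maltose, which was so for 31 (15.7%) of the higher genes and 502 (51.9%) of all genes.

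The size of the difference between straw and cellulose went with the size on wood. Genes at least 4-fold lower on straw had a median pine minus maltose difference of -0.89, and those lower by 2-fold to 4-fold -0.41. The 590 genes that differed less than 2-fold had a median of 0.38. Genes higher by 2-fold to 4-fold reached 1.50, and those at least 4-fold higher 2.49. For aspen minus maltose the 5 medians, in the same order, were -0.71, -0.33, -0.0048, 0.81 and 1.46. Across the 967 genes, straw minus cellulose had a Pearson correlation of 0.64 (Spearman's rho 0.60) with pine minus maltose and 0.46 (rho 0.45) with aspen minus maltose. Genes are not independent replicates, and the 5 columns share 1 normalization, so these are descriptions of the table.

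**Figure D5:**
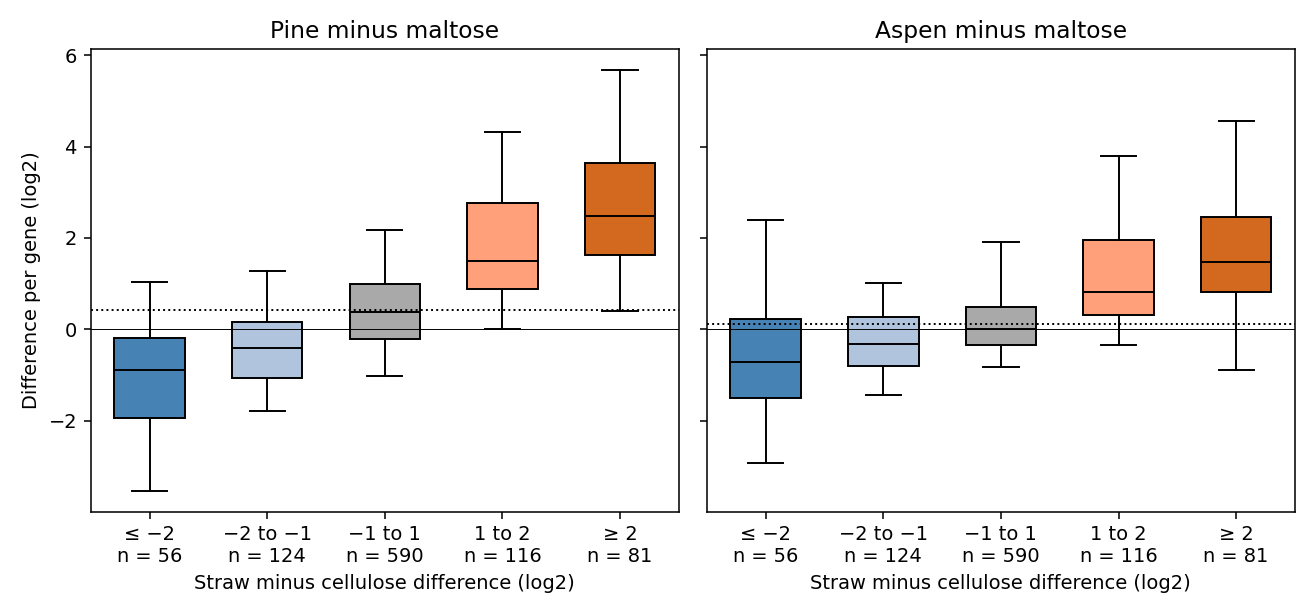
Difference per gene between pine and maltose (left) and between aspen and maltose (right) on the log2 scale (y axes), for 5 classes of genes by their straw minus cellulose difference (x axes, with the number of genes). Boxes span the quartiles with the median as a line, whiskers run from the 5th to the 95th percentile, and the dotted line is the median of all genes: the medians climb from -0.89 to 2.49 on pine and from -0.71 to 1.46 on aspen.

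Sorted by the woods, the 197 higher genes fell into 4 main patterns. The largest held 94 genes (47.7%, against 16.4% of all genes) that were at least 2-fold above maltose on both woods, gene 1581402 among them. Their median levels were 7.00 on maltose, 8.34 on cellulose, 10.86 on straw, 9.75 on aspen and 10.47 on pine. A further 55 genes (27.9%, against 15.7%) were at least 2-fold above maltose on pine alone, with medians of 9.32 on maltose, 9.56 on cellulose, 11.68 on straw, 9.59 on aspen and 11.53 on pine. In this pattern the medians of maltose, cellulose and aspen lay close together, and those of straw and pine stood above them. The choice of these 55 genes fixes straw above cellulose, pine above maltose and aspen less than 2-fold above maltose. How cellulose lay relative to maltose was left free. Only 15 genes (7.61%, against 4.55%) were past 2-fold on aspen alone. The 31 genes with both woods within 2-fold of maltose had a smaller median difference between straw and cellulose, 1.35, and medians of 9.99 on straw, 8.56 on cellulose, 8.80 on maltose and 8.68 on each wood.

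Among the lower genes, 34 (18.9%, against 3.93% of all genes) were at least 2-fold below maltose on both woods, genes 1596132 and 1596133 among them. Their medians were 9.01 on maltose, 8.64 on cellulose, 6.21 on straw, 7.36 on aspen and 7.31 on pine. Another 25 genes (13.9%, against 5.48%) were lower on pine alone and 12 (6.67%, against 2.48%) on aspen alone. The 80 lower genes with both woods within 2-fold of maltose had medians of 6.49 on straw, 8.06 on cellulose, 7.47 on maltose, 7.51 on aspen and 7.44 on pine. In that pattern the median was lowest on straw and highest on cellulose, with maltose and both woods between them. The choice of these 80 genes fixes straw below cellulose and both woods near maltose. Only how straw and cellulose lay relative to the other substrates was left free.

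Straw was often, though not always, the extreme substrate for these genes. Of the 197 higher genes, 119 had their highest value on straw, 58 on pine, 19 on aspen and 1 on maltose. Of the 180 lower genes, 145 had their lowest value on straw, 17 on pine, 11 on aspen and 7 on maltose. Over all 967 genes, straw held the highest value for 210, pine for 326, aspen for 120 and maltose for 178. The lowest value lay on straw for 291, on pine for 92, on aspen for 151 and on maltose for 283. Pine held the highest value for 29.4% of the 197 genes against 33.7% of all genes, and aspen for 9.64% against 12.4%. The counts for the 197 and 180 genes use the values that chose them and are given as a description.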

How the data were processed

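Per the file headers, the deposited values are log2 normalized read counts, with a single column for each substrate. Per the labels' protocols, libraries came from polyadenylated RNA and were read from both ends. TopHat2, HTSeq and DESeq 1.5 are named in the submitters' processing notes without role or order. Build, annotation, strand setting, size factors, any shrinkage or added value and the way libraries were pooled were not given in the sources used here. Shrinkage or an added value would understate differences of weakly read genes. The depth per library is unknown.

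The table had 1000 rows, of which 23 repeated another row and were dropped, and no source used here says how its genes were selected. Values ran from 0.30 to 17.31. Straw minus cellulose was taken over the 967 kept genes with Python 3.11.15, pandas 2.3.3 and numpy 2.4.6, and calls were made at a log2 difference of 1 or 2. The planned limma test could not be run on 1 value per substrate. The counting was tested on simulated data. Named genes were, by rule, the 2 largest differences in each direction. The members, lists and calls were chosen with earlier results of these data known. The alternatives were no filter, a filter at a count of 100, 8 added to the linear values and 4 rescalings.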

Additional observations from a re-analysis of the deposited data

How the results depend on the processing

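No paired analysis was possible because each substrate had 1 pooled value per gene, and no replicate could be left out for the same reason. Under the 7 alternatives, the genes higher on straw past 2-fold numbered 166 to 197 and the lower ones 130 to 214, and past 4-fold 70 to 81 and 43 to 66. Of the 197 and 180 genes, 146 and 140 stayed past 2-fold in the same direction under every alternative that kept all 967 genes, and none turned. The 4 named genes kept their direction and stayed past 16-fold under all 7.

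The median straw minus cellulose difference became -0.0898 with quantile normalization and -0.12 with equal sums. Among higher genes, the median pine minus maltose difference became 2.03 with the stricter filter, 1.13 with quantile normalization, 1.36 with centring on column medians and 1.27 with equal sums, and aspen minus maltose became 0.80, 0.65 and 1.27 with these last 3. Among lower genes they became -1.10, -1.15 and -1.22 on pine and -0.71, -0.86 and -0.25 on aspen. Less the median of all genes under the same alternative, the higher genes stood at 1.30 to 1.59 on pine and 0.99 to 1.08 on aspen, and the lower genes at -1.07 to -0.88 and -0.55 to -0.44. The share of higher genes past 2-fold on pine was 54.9% to 78.8%, against 17.2% to 36.2% of all genes. The share of lower genes past 2-fold below maltose on pine became 54.4% with quantile normalization, 57.8% with centring and 61.2% with equal sums, against 20.9%, 23.7% and 26.1% of all genes. On aspen it became 38.5% with quantile normalization and 42.2% with centring, against 16.3% and 19.8% of all genes. It was lowest with equal sums, at 20.1% against 5.89% of all genes.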

Other observations

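Some genes lower on straw than on cellulose were higher on wood than on maltose. On pine this held for 19 of the 180 genes (10.6%, against 32.2% of all genes), with straw minus cellulose differences from -2.74 to -1.01, and on aspen for 17 (9.44%, against 21.0%), with differences from -4.54 to -1.06. Both held for 6 of the 180 genes (3.33%, against 16.4% of all genes), whose median levels were 7.58 on maltose, 10.07 on cellulose, 8.19 on straw, 9.92 on aspen and 9.74 on pine. The choice of these 6 fixes that the woods lay above maltose and cellulose above straw.

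The 5 genes that were higher on straw than on cellulose and at least 2-fold lower on aspen than on maltose had median levels of 12.15 on straw, 12.36 on pine, 9.32 on maltose, 8.71 on cellulose and 6.78 on aspen. For 3 of them pine was at least 2-fold above maltose while aspen was at least 2-fold below it, a pattern that 5 of the 967 genes showed in either direction.

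The 590 genes that differed less than 2-fold between straw and cellulose were more often level on the woods than the table as a whole. Both woods lay within 2-fold of maltose for 391 of the 590 genes (66.3%), against 51.9% of all genes. Pine held the highest of the 5 values for 248 of the 590 (42.0%, against 33.7% of all genes). At least 2-fold higher on pine than on maltose were 143 (24.2%), against 32.2% of all genes. These counts depend on the column medians, of which pine had the highest (8.89). The choice also left out many genes that were highest on straw or cellulose. Straw held the highest value for 15.4% of the 590 against 21.7% of all genes, and cellulose for 10.7% against 13.8%. The larger pine share among the 590 thus follows at least in part from the choice.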
